A study of Homo sapiens with 14 samples.

Results

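Peaks of the BAF chromatin remodelling complex and of SOX2 were counted and placed at 7 genes of the LIF and STAT3 pathway in naïve and primed human embryonic stem cells. The genes were chosen by role: LIFR, IL6ST and OSMR as receptors, JAK1 as the kinase, STAT3 as the transcription factor, SOCS3 as the inhibitor and PIM1 as a target. Each locus was the GENCODE gene body with 60 kb to either side on hg38, and the 7 loci stood among 20033 protein-coding genes treated in the same way. Chromatin immunoprecipitation with sequencing (ChIP-seq) had been performed on WIBR3, an established human embryonic stem cell line, with antibodies to BRG1 and BRM (the alternative ATPases of the BAF complex), BAF155 (a scaffold subunit) and SOX2. Naïve cells were polyclonal cultures converted from the primed line and kept in serum-free 5i/L/A medium, which held LIF, Activin A and 5 inhibitors. Primed cells were kept in the conventional medium with serum, serum replacement and FGF2, and both states grew on mouse feeder cells. Each antibody had 1 library per state, apart from SOX2 with 2 libraries per state, whose lists shared every coordinate and therefore count once. No value below therefore has a replicate error or a test, and the intervals given cover counting error only.

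LIF binds LIFR, which pairs with IL6ST (gp130), the signalling chain shared by the receptors of the interleukin-6 family. OSMR pairs with the same chain to receive oncostatin M. The receptors hold JAK1, which phosphorylates STAT3, and STAT3 then enters the nucleus and binds an interrupted palindrome of the letters TTCNNNGAA. SOCS3 is induced by STAT3 and shuts down the receptor, and PIM1, a serine/threonine kinase, is a textbook STAT3 target. In mouse embryonic stem cells this pathway sustains naïve self-renewal, whereas conventional human cultures are kept without added LIF.

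The 6 sequences that follow are those the placement of peaks turns on, each of 200 bases on the plus strand of hg38. Capitals mark matches on either strand to TTCNNNGAA (STAT), to CATTGT or CTTTGT (the SOX core) or to ATGCAAA (the POU octamer core, added after the sequences had been seen). A match is a description of the letters and not a binding site. The window at SOCS3 5.76 kb upstream of the start, chr17:78365735-78365934, is the middle of the region with the highest primed fold of that locus. It held 1 STAT match and 2 SOX matches. The window 3.58 kb downstream of the SOCS3 start, chr17:78356396-78356595, is the middle of a primed SOX2 peak and held 1 STAT and 1 POU match. The PIM1 window 28.51 kb upstream, chr6:37141539-37141738, lies at the site where SOX2 was listed in both states, and held no match. It is shown for that reason and was chosen after its values were seen. Over their whole length, the primed and the naïve SOX2 peak at this site each held 1 SOX match. The PIM1 window 32.18 kb upstream, chr6:37137868-37138067, and the STAT3-locus window 43.43 kb upstream, chr17:42431773-42431972, each held 1 SOX match. The IL6ST window 30.32 kb upstream, chr5:56025185-56025384, is the middle of a naïve-only BAF region and held 1 STAT and 1 SOX match.
SOCS3 5.76 kb upstream: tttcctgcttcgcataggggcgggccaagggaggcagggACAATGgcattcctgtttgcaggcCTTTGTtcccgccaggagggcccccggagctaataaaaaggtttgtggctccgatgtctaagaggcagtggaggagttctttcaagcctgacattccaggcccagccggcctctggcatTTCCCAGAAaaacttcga
SOCS3 3.58 kb downstream: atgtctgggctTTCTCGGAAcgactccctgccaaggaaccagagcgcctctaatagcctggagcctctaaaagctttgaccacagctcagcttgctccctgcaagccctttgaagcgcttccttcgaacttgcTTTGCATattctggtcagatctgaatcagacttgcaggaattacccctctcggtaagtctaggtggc
PIM1 28.51 kb upstream: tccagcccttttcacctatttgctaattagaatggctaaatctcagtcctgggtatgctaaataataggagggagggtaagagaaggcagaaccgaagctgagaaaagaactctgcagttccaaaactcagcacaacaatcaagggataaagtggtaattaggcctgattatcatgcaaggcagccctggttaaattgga
PIM1 32.18 kb upstream: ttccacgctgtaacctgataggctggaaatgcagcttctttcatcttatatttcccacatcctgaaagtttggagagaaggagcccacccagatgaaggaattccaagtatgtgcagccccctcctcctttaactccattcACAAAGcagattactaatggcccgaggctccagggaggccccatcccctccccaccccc
STAT3 locus 43.43 kb upstream: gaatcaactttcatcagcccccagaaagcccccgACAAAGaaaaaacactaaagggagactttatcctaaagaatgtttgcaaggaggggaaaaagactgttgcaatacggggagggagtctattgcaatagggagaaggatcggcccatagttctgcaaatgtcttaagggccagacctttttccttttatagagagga
IL6ST 30.32 kb upstream: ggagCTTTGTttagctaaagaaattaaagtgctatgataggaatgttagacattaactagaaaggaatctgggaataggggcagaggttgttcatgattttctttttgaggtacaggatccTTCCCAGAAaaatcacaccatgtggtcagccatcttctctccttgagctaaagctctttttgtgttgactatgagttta

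Over the 7 loci the naïve lists held 68 BRG1, 77 BAF155, 35 BRM and 2 SOX2 peaks, and the primed lists held 24 BRG1, 47 BAF155, 0 BRM and 13 SOX2 peaks. BRG1 and BAF155 were thus listed more often in naïve cells and SOX2 more often in primed cells. The log2 ratios of naïve to primed totals were taken with 1 added to each total. They were 1.46 for BRG1, 0.70 for BAF155 and −2.22 for SOX2. The counting intervals, from the totals without the added 1, were 0.81 to 2.24, 0.17 to 1.27 and −5.89 to −0.56 in that order. The lists themselves differed in length and held 57884 naïve and 15611 primed BRG1 peaks, 62338 and 58352 BAF155 peaks, 17413 and 167 BRM peaks, and 1940 and 9290 SOX2 peaks. When both BRG1 lists were held to 15611 peaks by fold, the loci had 16 naïve and 24 primed BRG1 peaks, so that the direction turned. BAF155, with 58352 peaks in each list, had 76 against 47, and SOX2, with 1940 in each, had 2 against 3. Among peaks of at least 4-fold enrichment, the loci had 2 naïve and 18 primed BAF155 peaks. In the whole lists, 3146 of 62338 naïve and 10985 of 58352 primed BAF155 peaks reached 4-fold. With a −log10 q of at least 3 the loci had 24 naïve and 30 primed BAF155 peaks.

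**Figure D1:**
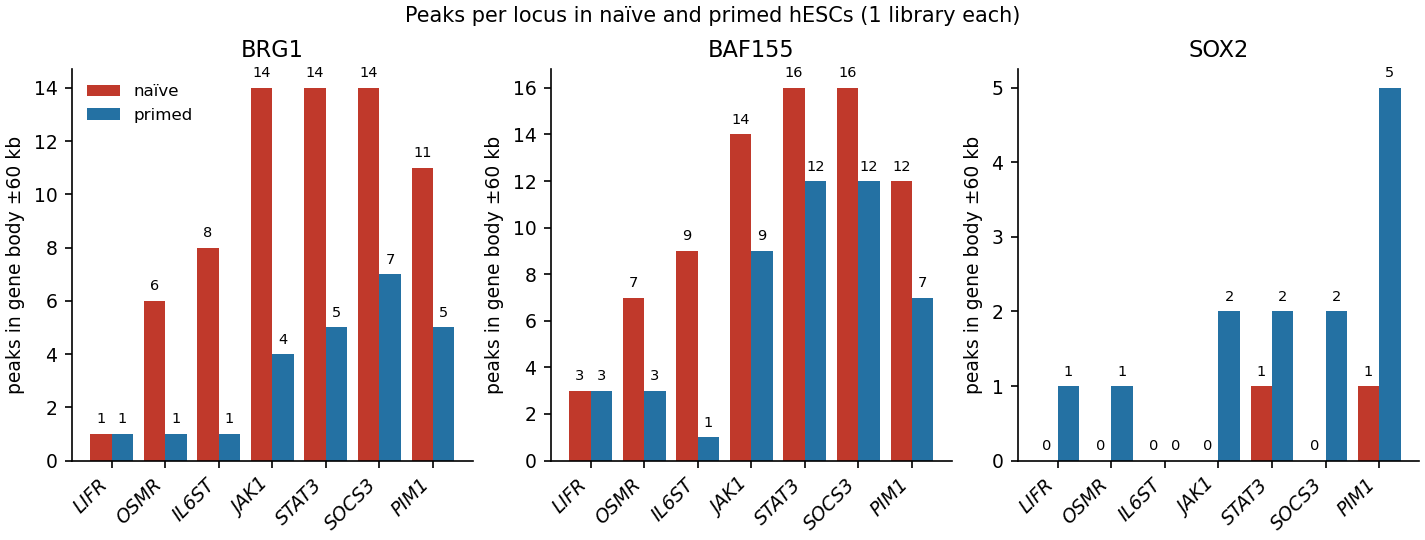
Bars give the number of peaks (vertical axis) in the gene body with 60 kb to either side at each of the 7 loci (horizontal axis), red for naïve and blue for primed cells, with 1 library per bar for BRG1 and BAF155 and 1 list per state for SOX2. Naïve BRG1 bars reach 14 at JAK1, STAT3 and SOCS3 against 4, 5 and 7 in primed cells, and the tallest SOX2 bar is the 5 primed peaks at PIM1.

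LIFR (ENSG00000113594.10, chr5:38474668-38608354, minus strand), the receptor that binds LIF, had the fewest naïve BRG1 and naïve BAF155 peaks of the 7 loci. It held 1 BRG1 peak in each state, 3 BAF155 peaks in each state, 2 naïve BRM peaks, 1 primed SOX2 peak and no naïve SOX2 peak. The counts of BRG1 and of BAF155 peaks were thus the same in both states at LIFR, while BRM was listed in naïve cells alone. Of all protein-coding genes, 92.6% had as dense or denser naïve BRG1 peaks per 100 kb. The log2 ratio of BRG1 counts, with 1 added to each, was 0.0, and 97.5% of genes reached as high a value. Both states shared a region at the main start on the minus strand, chr5:38555502-38557455, with a highest fold of 3.64 in naïve and 4.02 in primed cells, and the strongest BRM peak of the 7 loci (4.37-fold) lay inside it. GENCODE places the starts of LIFR transcripts in 6 groups more than 1 kb apart, and 1 of them had any peak within 1 kb. The single SOX2 peak, chr5:38660344-38660586, was 103.82 kb upstream of the main start, in an intron of the antisense transcript LIFR-AS1, within a primed-only BAF155 region, at 7.84-fold.

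IL6ST (ENSG00000134352.21, chr5:55935095-55995022, minus strand), the shared signalling chain, had the largest naïve excess of BAF155 among the 7 loci. It held 8 naïve and 1 primed BRG1 peaks, 9 naïve and 1 primed BAF155 peaks, 3 BRM peaks (naïve) and no SOX2 peak in either state. The log2 ratio of BAF155 counts, with 1 added to each count, was 2.32, and 0.684% of protein-coding genes reached as high a value. For BRG1 it was 2.17, reached by 24.7% of genes. The single primed peaks of both subunits formed the region that covers the start, chr5:55993116-55995725. All 8 other regions were naïve-only. Of these, 6 lay 9.19 to 53.41 kb upstream, within the lncRNA gene ENSG00000249236, 1 lay 16.43 kb inside IL6ST and 1 lay 60.75 kb downstream of the start. BAF155 was listed at all 8 and BRG1 at 7, and BRM at 2, which were the wide regions at 30.32 and 42.79 kb upstream. With lists of equal length IL6ST kept 9 against 1 BAF155 peaks and 2 against 1 BRG1 peaks. At a −log10 q of at least 3, IL6ST had 2 against 1 BAF155 peaks and 3 against 0 BRG1 peaks. None of its peaks in either state reached 4-fold.

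OSMR (ENSG00000145623.13, chr5:38845858-38945596, plus strand), the receptor for oncostatin M, held 6 naïve and 1 primed BRG1 peaks, 7 naïve and 3 primed BAF155 peaks, 1 naïve BRM peak and 1 primed SOX2 peak. Its regions were 7 naïve-only, 1 primed-only and 2 common. The common ones were at the start, chr5:38845343-38846726, and 75.31 kb into the gene, chr5:38921091-38921551. The second was the only OSMR site with a primed BRG1 peak and had the highest fold of the locus in both states (3.77 naïve, 4.33 primed). Of the naïve-only regions, 4 lay 9.99 to 36.12 kb upstream in the divergent transcript OSMR-DT, and the one at 29.32 kb carried the single BRM peak. At 4-fold and over, the direction turned to 0 naïve against 1 primed BRG1 peak and 0 against 2 BAF155 peaks. The whole lists at 4-fold held 2927 naïve and 3383 primed BRG1 peaks, and 3146 naïve and 10985 primed BAF155 peaks.

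JAK1 (ENSG00000162434.14, chr1:64833223-65067754, minus strand), the kinase that the receptors hold, spans the widest window, 354.5 kb. It held 14 naïve and 4 primed BRG1 peaks, 14 naïve and 9 primed BAF155 peaks, 6 naïve BRM peaks and 2 primed SOX2 peaks. Of its 22 BAF regions 13 were naïve-only, 3 primed-only and 6 common. All 13 naïve-only regions fell inside the gene body, from 102.15 kb downstream to 74.95 kb upstream of the main start. GENCODE places the JAK1 starts in 7 groups, of which 3 had a peak within 1 kb. A common region with BRM covered the main start and the group about 100 kb upstream, at chr1:64965452-64968612 and chr1:65065637-65068772. At the upstream one the highest fold was 5.19 in primed and 2.98 in naïve cells, and a primed SOX2 peak of 4.87-fold was listed there. At the main start the folds were 3.58 and 3.61, with no SOX2 peak. The other SOX2 peak (chr1:64886938-64887226, 9.98-fold, intron) met no BAF region of either state. With lists of equal length the BRG1 counts were 3 naïve and 4 primed.

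**Figure D2:**
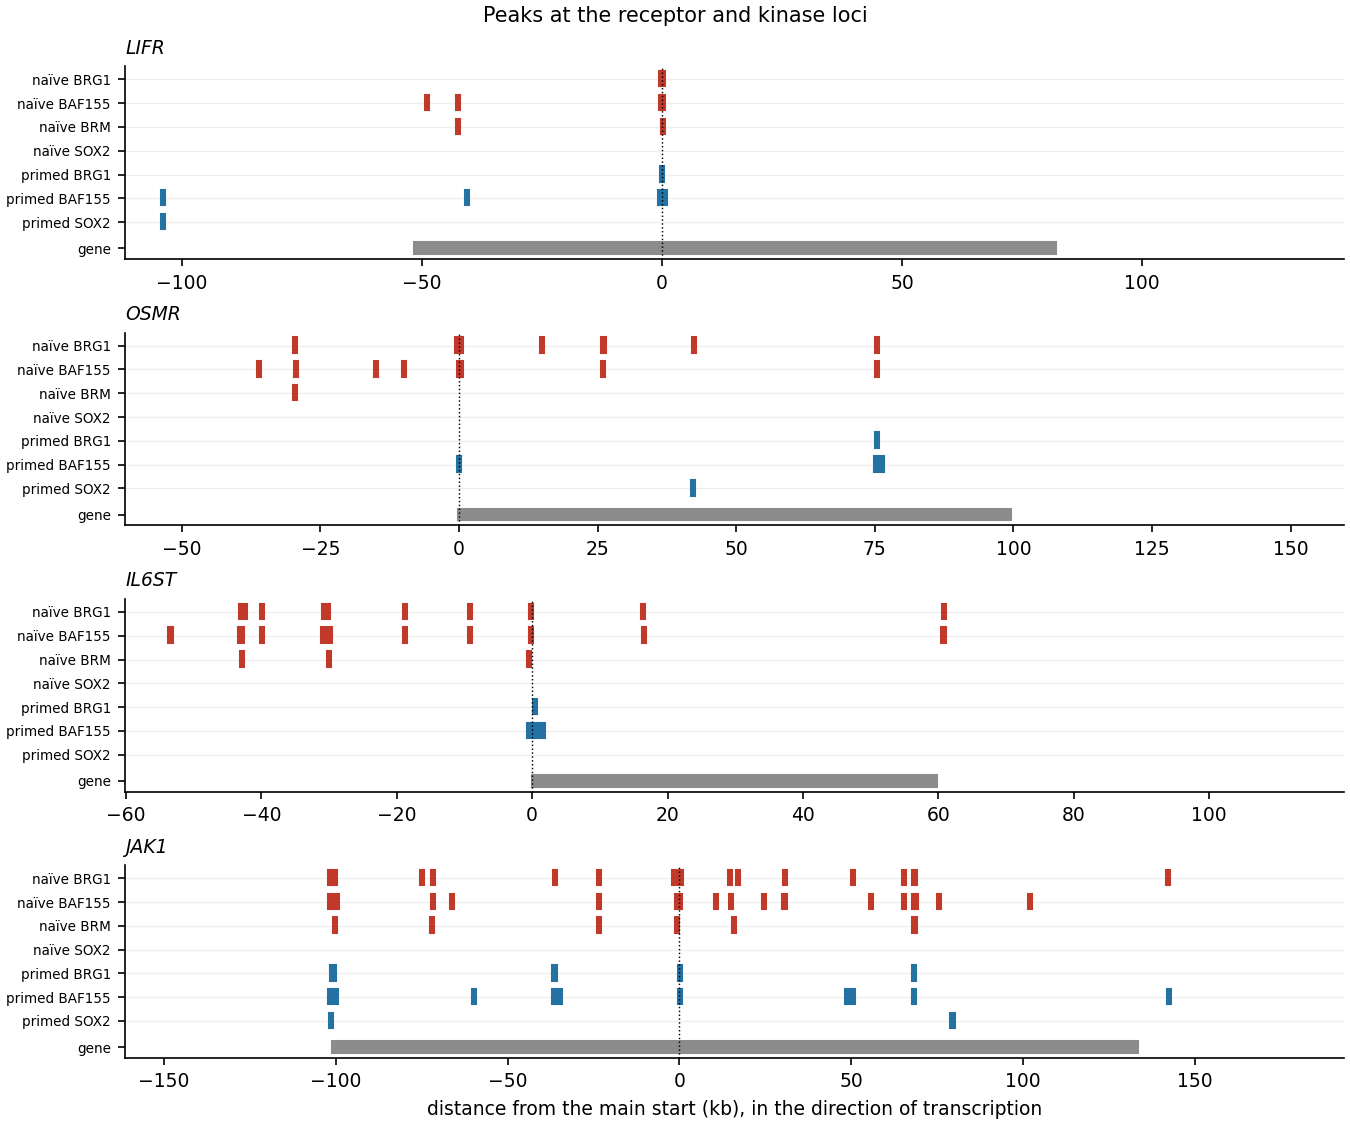
Each red (naïve) or blue (primed) box is a peak at LIFR, OSMR, IL6ST or JAK1, by list (rows) and by distance in kb from the main start in the direction of transcription (horizontal axis). Grey bars are gene bodies, the dotted line is the start, and narrow peaks are widened to be visible. At IL6ST 1 primed peak per subunit sits at the start, while naïve peaks reach 53.41 kb upstream.

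STAT3 (ENSG00000168610.16, chr17:42313324-42388540, minus strand), the transcription factor of the pathway, held 14 naïve and 5 primed BRG1 peaks, 16 naïve and 12 primed BAF155 peaks, 7 BRM peaks in naïve cells, and 1 naïve and 2 primed SOX2 peaks. Its window also contains STAT5A and CAVIN1 and part of STAT5B, so that some regions lie nearer to those genes. Of 23 regions, 11 were naïve-only, 4 primed-only and 8 common, and 8 of the 11 naïve-only regions were upstream of STAT3. The start was covered by a common region, chr17:42387663-42389035, with BAF155 in both states, BRG1 and BRM in naïve cells and a primed SOX2 peak of 3.96-fold. No primed BRG1 peak was listed there. The region with the highest primed fold (5.08) was primed-only, chr17:42328915-42330263, 58.85 kb into the gene on an exon. Both primed subunits and a 6.6-fold SOX2 peak were listed at this site, and it was the only one of the 13 primed-only regions at the 7 loci with BRG1 as well as BAF155. The naïve SOX2 peak, chr17:42431725-42432021 (5.49-fold), lay 8.62 kb from a CAVIN1 start in a common region with BRM. With lists of equal length STAT3 had 3 naïve and 5 primed BRG1 peaks.

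SOCS3 (ENSG00000184557.4, chr17:78356778-78360077, minus strand), the feedback inhibitor, was the densest locus for BAF subunits. In a window of 123.3 kb it held 14 naïve and 7 primed BRG1 peaks, 16 naïve and 12 primed BAF155 peaks and 10 naïve BRM peaks. Per 100 kb, 0.28% of protein-coding genes had as many or more primed BRG1 peaks, 0.938% as many BRM peaks, and 2.78% as many primed BAF155 peaks. Regions were 9 naïve-only, 3 primed-only and 9 common, of which 1 naïve-only and 1 primed-only region overlap by fewer bases than the 25% rule asks. The common regions formed a series from 21.41 kb upstream to 46.11 kb downstream of the start. BRM was listed at 6 of these 9, and at 3 of the 9 naïve-only regions. With lists of equal length the BRG1 counts at SOCS3 were 5 naïve and 7 primed, which turns the direction.

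Both SOX2 peaks of SOCS3 were primed and fell in common regions with BRM on either side of this short gene. The upstream one, chr17:78365543-78366018, was 18.0-fold and ranked 249 of 9290 primed SOX2 peaks. Its BAF region had a highest fold of 6.84 in primed and 3.72 in naïve cells, and the strongest BRM peak of the locus (3.96-fold) lay on it. The window printed above for SOCS3 5.76 kb upstream is the middle of that region, which lies in an intron of the divergent transcript SOCS3-DT. The downstream one, chr17:78356390-78356602, was 6.08-fold and lay in the region with the highest naïve fold of all regions at the 7 loci (4.65), which also reached 4.06 in primed cells. The start itself, inside chr17:78358310-78361148, had folds of 2.96 naïve and 3.41 primed, with BRM and without SOX2.

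PIM1 (ENSG00000137193.14, chr6:37170152-37175428, plus strand), the target kinase, was the densest of the 7 for SOX2. It held 5 primed SOX2 peaks and 1 naïve one in 125.3 kb, and 0.0998% of protein-coding genes had as many or more primed SOX2 peaks per 100 kb. It also held 11 naïve and 5 primed BRG1 peaks, 12 naïve and 7 primed BAF155 peaks and 6 BRM peaks. All 12 of its regions were naïve-only (5) or common (7), with none primed-only. The 5 primed SOX2 peaks fell in 4 of the common regions. The strongest, chr6:37141376-37141903, was 28.51 kb upstream in intergenic sequence at 30.4-fold, and ranked 12 of 9290 peaks. The naïve SOX2 peak, chr6:37141241-37141851 (12.5-fold, rank 204 of 1940), covered the same place, and this was the 1 site of the 7 loci listed in both states. The other distal peaks were 43.98 kb (7.29-fold) and 32.18 kb (5.7-fold) upstream. BRM was listed in all 3 distal regions.

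At PIM1 the promoter region, chr6:37168835-37172453, had 2 primed SOX2 peaks, 0.41 kb upstream (7.7-fold) and 2.14 kb downstream (6.99-fold) of the start, and no BRM peak. The region 32.27 kb upstream had the highest fold of the locus in both states, 4.1 naïve and 5.51 primed. With lists of equal length PIM1 had 1 naïve and 5 primed BRG1 peaks, the largest turn of direction among the 7.

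**Figure D3:**
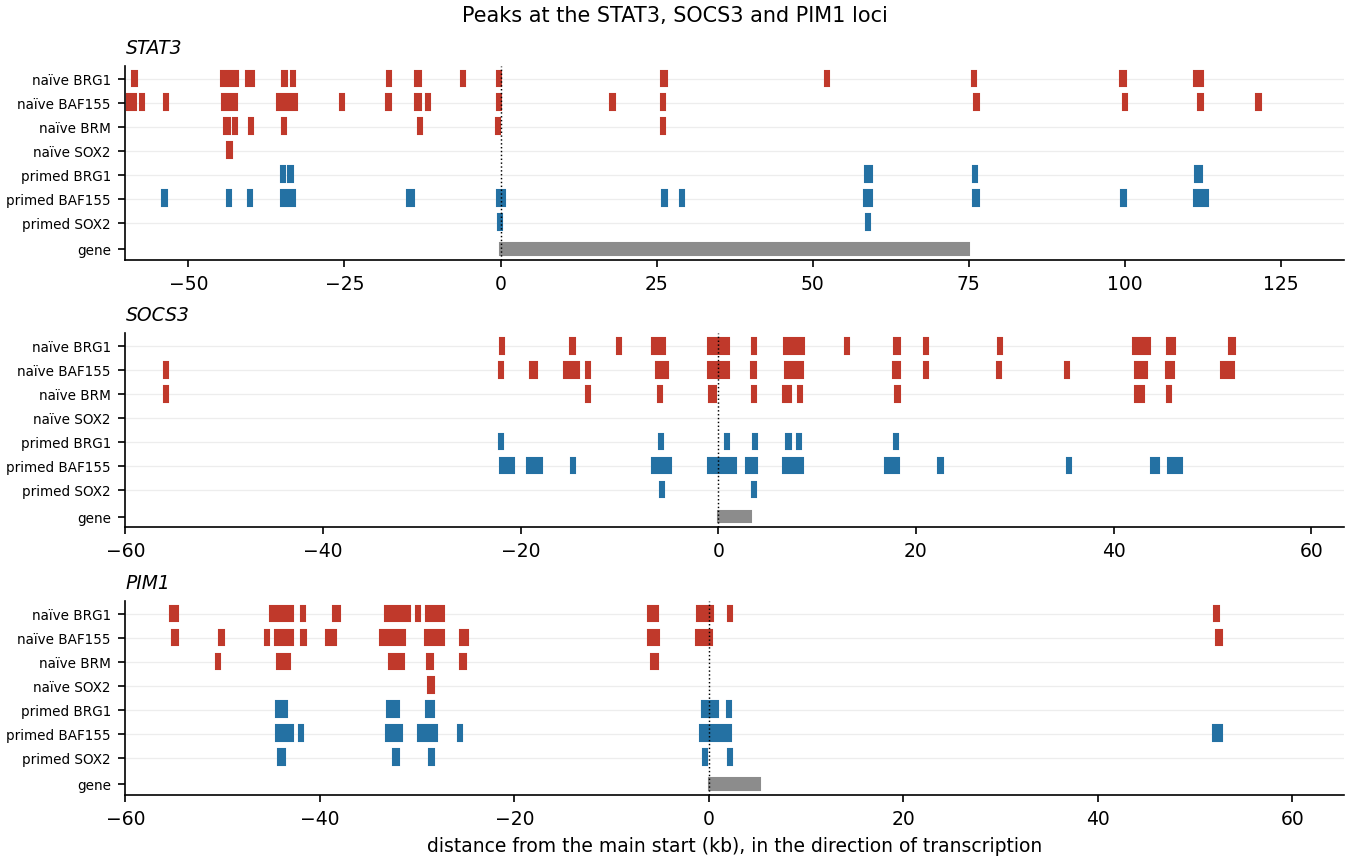
Boxes are peaks at STAT3, SOCS3 and PIM1, by list (rows) and by distance in kb from the main start in the direction of transcription (horizontal axis), red for naïve and blue for primed, with grey gene bodies, a dotted line at the start and narrow peaks widened to be visible. Peaks of both states line up in columns at SOCS3 and upstream of PIM1, where 3 primed SOX2 peaks lie 28.51 to 43.98 kb from the start.

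Set beside all genes, the 7 loci had a median BRG1 ratio a little under, and a median BAF155 ratio above, that of all protein-coding genes. At least 2-fold more naïve than primed BRG1 peaks (with 1 added to each count) were listed at 5 of the 7 loci, IL6ST, OSMR, JAK1, STAT3 and PIM1, against 74.2% of all protein-coding genes. The opposite was seen at 0 loci, against 0.958% of genes. For BAF155, 2 of 7 loci (IL6ST and OSMR) had at least 2-fold more naïve peaks, against 18% of genes, and 0 had at least 2-fold more primed peaks, against 10.4%. The median log2 ratio was 1.32 over the 7 loci and 1.46 over all genes for BRG1, and 0.58 against 0.22 for BAF155, where the quartiles of all genes were −0.26 and 0.74. For SOX2 the medians were −1.0 over the 7 loci and 0.0 over all genes, and both were 0.0 with lists of equal length. With such lists the BRG1 ratio was above 0 at 1 of 7 loci, against 36.3% of genes, with medians of −0.32 and 0.0. The BAF155 ratio was then above 0 at 6 of 7, against 50.2% of genes, with medians of 0.58 and 0.1. Of the 7 loci, 6 had more naïve-only than primed-only BAF regions, LIFR being the exception, against 66.1% of genes.

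**Figure D4:**
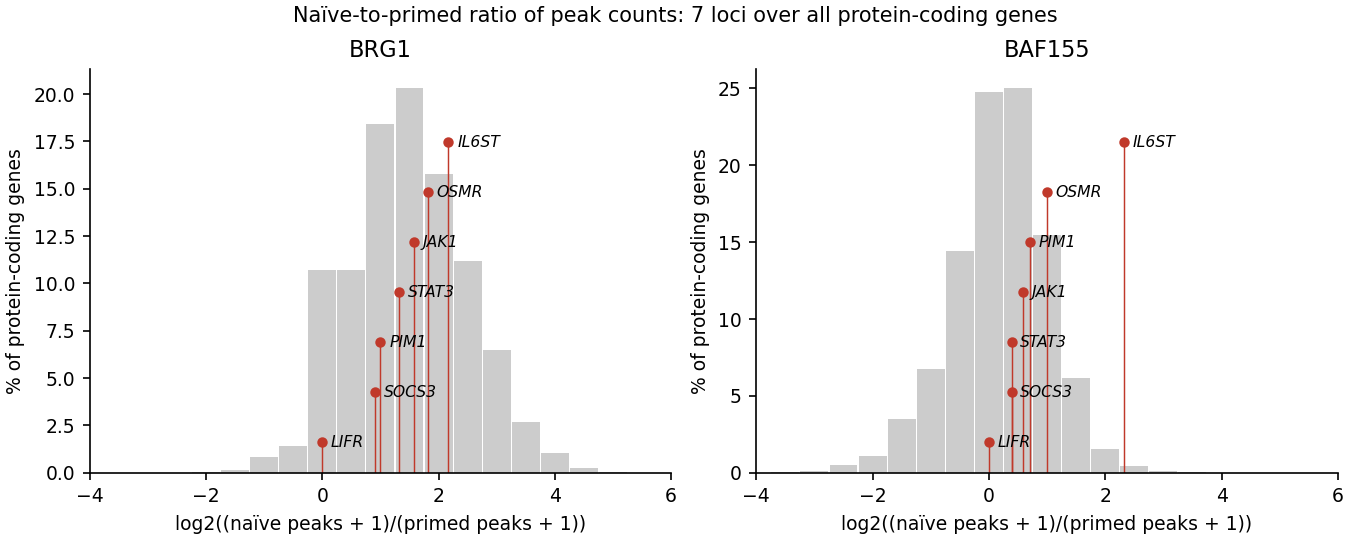
Grey bars show the share of 20033 protein-coding genes (vertical axis, percent) at each log2 ratio of naïve to primed peak counts plus 1 (horizontal axis), for BRG1 and BAF155. Red points mark the 7 loci, at heights that serve only to separate the names. IL6ST lies at 2.32 in the right tail for BAF155. For BRG1 the loci lie between 0.0 (LIFR) and 2.17 (IL6ST), with LIFR at the low end. As high a BRG1 ratio or higher was reached by 97.5% of genes for LIFR and by 24.7% for IL6ST.

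A peak of some BAF subunit lay at the start of every one of the 7 genes in both states. Within 1 kb of the main start, naïve BRG1 was listed at 7 of 7 loci (61.7% of all genes), naïve BAF155 at 7 (61.8%), primed BAF155 at 7 (69% of genes) and primed BRG1 at 5 (29.8%), OSMR and STAT3 lacking the last. BRM was listed there at 5 of 7, LIFR, IL6ST, JAK1, STAT3 and SOCS3, against 17.4% of genes. Primed SOX2 was listed at the starts of STAT3 and PIM1 (3.03% of genes) and naïve SOX2 at none (0.2%). Within the whole windows, BRM was listed at 7 of 7 loci (70.2% of genes), naïve SOX2 at 2 (13.2%) and primed SOX2 at 6, all but IL6ST (42.6%).

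The 7 loci held 55 naïve-only regions, 13 primed-only regions and 34 common ones. Of the naïve-only regions, 5 of 55 were promoters (9.09%, exact Clopper-Pearson interval 3.02 to 20.0). The share of all such regions in the genome, 13.7%, lies inside that interval. Introns held 37 of 55 (67.3%, interval 53.3 to 79.3, against 48.9%). JAK1 alone held 10 of the 37. The windows were drawn around genes and the background was genome-wide, so the shares are not matched for gene sequence. Of the common regions 14 of 34 were promoters (41.2%, interval 24.6 to 59.3, against 52.2%) and 12 were intergenic (35.3%, interval 19.7 to 53.5, against 18.6%). The 12 intergenic ones were 5 at PIM1, 4 at SOCS3 and 3 at STAT3. The common regions at these loci were wide, with a median of 1560 bp against 1110 bp for all common regions. In 26 of the 34 (76.5%, interval 58.8 to 89.3) the highest fold was larger in primed than in naïve cells, against 73.8% of all common regions. When only peaks of at least 4-fold were kept, 3 naïve-only and 16 primed-only regions were found in place of 55 and 13, which turns the direction. The whole lists likewise held 3146 naïve against 10985 primed BAF155 peaks of at least 4-fold. When BRG1 peaks alone were used there were 46 naïve-only and 2 primed-only regions.

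**Figure D5:**
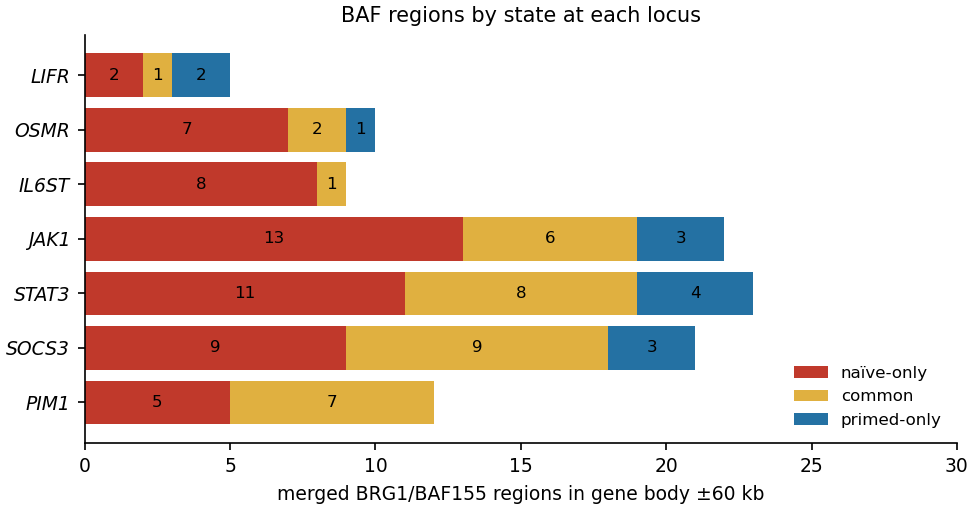
Stacked bars give the number of merged BRG1 and BAF155 regions (horizontal axis) at each locus (rows), split into naïve-only (red), common (yellow) and primed-only (blue). IL6ST and PIM1 have no primed-only region, LIFR has 2 naïve-only and 2 primed-only, and SOCS3 has as many common as naïve-only regions, 9 of each.

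The primed BRG1 peaks at these loci were nearly all naïve BRG1 peaks as well. Of the 24, 22 met a naïve BRG1 peak (91.7%, interval 73.0 to 99.0), against 66.2% of the whole primed list. The reverse share was 22 of 68 (32.4%, against 17.4%). For BAF155, 30 of 47 primed peaks met a naïve one (63.8%, interval 48.5 to 77.3, against 42.3%) and 30 of 77 naïve peaks met a primed one (39.0% against 40.6%).

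BRM, the ATPase with only 167 primed peaks in the genome, followed the BAF regions of naïve cells. Of 35 naïve BRM peaks, 33 met a naïve BAF region (94.3%, interval 80.8 to 99.3), the same share as in the whole list. BRM was listed at 20 of the 34 common regions (58.8%, interval 40.7 to 75.4, against 32.0% of all common regions), at 11 of the 55 naïve-only regions (20.0% against 14.2%) and at 0 of the 13 primed-only regions. The share at common regions stands beside their greater width. By locus the number of BRM peaks was 10 at SOCS3, 7 at STAT3, 6 each at JAK1 and PIM1, 3 at IL6ST, 2 at LIFR and 1 at OSMR.

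Primed SOX2 peaks at these loci lay mostly where naïve cells also had BAF. Of 13, 11 met a primed BAF region (84.6% against 88.4% of the list), and 10 met a naïve one (76.9%, interval 46.2 to 95, against 41.6%). These 10 included all 5 at PIM1, of which 2 shared a region, and the 2 at SOCS3. The interval treats the peaks as independent. Both naïve SOX2 peaks met BAF regions of both states. Few of the SOX2 peaks held the SOX core at their middle: 4 of 13 windows of 200 bases (30.8%, interval 9.09 to 61.4) against 59.5% of the whole list. Over whole peaks it was 6 of 13 (46.2%) against 69.2%. The POU core was held by 2 of 13 windows (15.4%) against 15.3%.

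STAT matches were counted over whole BAF regions, since STAT3 binding itself was not analysed here. There were 30 matches to TTCNNNGAA at the 7 loci, 9 each at SOCS3 and in the STAT3 window, 5 at OSMR, 3 each at JAK1 and PIM1, 1 at IL6ST and 0 at LIFR. Common regions held 20 of them, in 15 of 34 regions (44.1% against 25.9% of all common regions), at 0.329 per kb against 0.248. Naïve-only regions held 8 in 6 of 55 (10.9% against 13.2%) and primed-only regions 2. In windows of 200 bases at the middle, where width plays no part, the match was in 2 of 34 common regions (5.88% against 4.48%) and 3 of 55 naïve-only regions (5.45% against 5.3%).

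Of the 30 STAT matches, 3 lay under a primed SOX2 peak, and each of these also lay under BRG1 and BAF155 peaks of both states and a BRM peak. They were the matches 5.84 kb upstream and 3.67 kb downstream of the SOCS3 start and the one 31.87 kb upstream of PIM1. Over whole peaks, 3 of the 13 primed SOX2 peaks at the loci held the match (23.1%), against 11.1% of the whole list. In windows of equal width at the middle of the peaks, 1 of 13 held it (7.69%, interval 0.195 to 36.0), against 6.93%. The whole list thus lies inside that interval, and no excess was seen where width plays no part. The sites are shown on the plus strand of hg38 with 10 bases to each side and the match in capitals, beside the one under the single BRM peak of OSMR, 29.46 kb upstream.
SOCS3 5.84 kb upstream, chr17:78365917-78365925: cctctggcatTTCCCAGAAaaacttcgag
SOCS3 3.67 kb downstream, chr17:78356407-78356415: tgtctgggctTTCTCGGAAcgactccctg
PIM1 31.87 kb upstream, chr6:37138276-37138284: gataaaagggTTCAGGGAAtatgagtcat
OSMR 29.46 kb upstream, chr5:38816547-38816555: ttgcctgcctTTCCTGGAAtccaacccac

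The other genes of the pathway, 44 chosen by textbook role, were counted in the same way. At least 2-fold more naïve BRG1 peaks were listed at 40 of the 44 (74.2% of all genes), and at least 2-fold more naïve BAF155 peaks at 7 (18% of all genes). At 1 gene, the kinase JAK2, BAF155 was at least 2-fold more frequent in primed cells (10.4% of all genes). More naïve-only than primed-only regions were found at 33 (66.1% of all genes). The reverse was found at 7, for which the share of all genes was not counted. BRM was listed at 41 (70.2%), naïve SOX2 at 8 (13.2%) and primed SOX2 at 21 (42.6%). Among the 11 target genes 10 had more naïve-only regions, and 5 held naïve and 7 primed SOX2 peaks. Among the 13 inhibitors the counts were 8, 2 and 5. Some of these genes share a window, such as LIF with OSM, and are not independent. STAT5A and part of STAT5B lie in the STAT3 window, so these genes also share peaks with that locus.

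Over the 7 lists with naïve or primed peaks, the gene on another chromosome with the most similar counts was named for each locus by the Euclidean distance of log2 counts plus 1. OSMR and B4GALT4 had identical counts (distance 0.0), JAK1 was nearest to BRSK1 (0.09), STAT3 to OAT (0.23) and SOCS3 to PDE6D (0.34). IL6ST was nearest to XRCC3 (0.45, with 2 genes tied), LIFR to ESYT3 (0.53) and PIM1 to GPRC5B (0.62). PIM1 thus had the least close match of the 7, and GPRC5B held 6 primed SOX2 peaks and 1 naïve one. As a check on the state labels, the naïve genes KLF17, DPPA5 and DNMT3L had 5, 13 and 9 naïve-only and 0 primed-only regions, and the primed genes ZIC2, SFRP2 and DUSP6 had 9, 3 and 5 primed-only against 2, 0 and 2 naïve-only regions.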

How the data were processed

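ChIP-seq peak lists of WIBR3 cells were analysed, 1 list for each of 10 samples, with 4 input libraries not used here. Per the methods and labels, the authors trimmed reads with trim_galore, mapped them to hg38 with Bowtie2 2.3.4, removed duplicates and called peaks with MACS2 against input, broad for single-end BAF subunit libraries and narrow for paired-end SOX2 libraries. The deposited lists give positions and, in 7 of them, the peak caller's score, its fold enrichment over input as a linear ratio, and its p-value and q-value as −log10. Primed BRM and the second SOX2 list of each state hold positions alone. The lists carry no read depth, so a missing peak is a call under the authors' threshold.

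The 7 genes, the other pathway genes and the alternatives were chosen with earlier results of these data known. Named sites were each SOX2 peak of a locus, the BAF region at each start, the region of highest fold per state and the strongest BRM peak; other sites were named after their values were seen. Peaks with any base in the gene body (GENCODE release 44) or 60 kb to either side were counted. BAF regions were BRG1 and BAF155 peaks merged within a state, and were common where at least 25% of either region was covered by one of the other state (bedtools 2.31.1). Promoters were midpoints within 1 kb of a start. Shares carry exact Clopper-Pearson 95% intervals (SciPy 1.17.1). Motifs were sought on both strands in windows of 200 bases and over whole regions, with pysam 0.24.0, and the script was tested on simulated data. Sequences are from hg38, and 2 sites are not reported here. Other flanks, thresholds, equal list lengths and overlap rules were tried.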

Additional observations from a re-analysis of the deposited data

How the results depend on the processing

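Each group had 1 library, so no replicate could be left out. No paired analysis was possible because no result comes from a test. Flanks of 20 or 100 kb, the gene body alone, midpoints, any shared base and leaving out the STAT3 window (added after the data were seen) moved no ratio at a single locus beyond its counting interval. All log2 ratios here have 1 added to each count. The log2 ratio of BRG1 totals, 1.46, was 0.58 at 4-fold and over and −0.56 with lists of equal length. For BAF155, 0.70 became −2.66 at 4-fold and −0.31 at a −log10 q of at least 3, and for SOX2, −2.22 became −0.42 with equal lists. For BAF regions, 2.00 became −2.09 at 4-fold, 0.10 at that q and 3.97 from BRG1 alone. The BRM share of 94.3% was 74.3% and 31.4% where 25% and 50% of both had to overlap, and 0% of 2 peaks with all lists held to 4-fold. At single loci the sign turned for BRG1 with equal lists at JAK1 (−0.32), PIM1 (−1.58), STAT3 (−0.58) and SOCS3 (−0.42), and at 4-fold at OSMR (−1.0) and STAT3 (−1.0). At 4-fold it also turned for BAF155 at OSMR (−1.58), JAK1 (−2.32), STAT3 (−2.32), SOCS3 (−1.32) and PIM1 (−1.0), and for regions at JAK1 (−1.32), OSMR (−1.58), PIM1 (−1.58), STAT3 (−2.32) and SOCS3 (−0.42). At that q it turned for regions at JAK1 (−0.42) and PIM1 (−1.0), and for BAF155 at JAK1 (−0.58), PIM1 (−0.58) and STAT3 (−0.26). With the gene body alone it turned for BAF155 at STAT3 (−0.32) and SOCS3 (−0.58), and with equal lists for SOX2 at STAT3 (1.0). At 4-fold the whole lists of BRG1 and BAF155 also held more primed than naïve peaks. The cause of these turns was not tested.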
